A study of Mus musculus with 4 samples.

Results

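The data described here compare the transcripts of 3T3-L1 cells treated with bilberry extracts with those of cells given only the solvent DMSO, on day 2 of adipocyte differentiation. 3T3-L1 is an established mouse cell line of preadipocytes, fibroblast-like cells that turn into fat cells after hormonal induction. Of the 4 samples of the series, 2 enter this comparison, each a single Agilent Whole Mouse Genome array: 100 μg/ml bilberry extracts in 0.1% DMSO, and 0.1% DMSO alone. The other 2 samples, cells given 100 nM delphinidin or 100 nM cyanidin (2 of the anthocyanidins, the pigments in which bilberry is rich), are shown beside them only as further levels. All 4 cultures received the same initiation medium of 10 μg/ml insulin, 1 μM dexamethasone and 0.5 μM IBMX, and the additives were present from the start of induction. A probe was a member when its spots were well above background, by the scanner software's own call, and unmarked for uneven signal on both arrays. This held for 21946 of 41174 probes, which represent 12151 of 19757 genes that could be named. With 1 array a condition there is no replicate check on any difference, no test and no p-value.

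Signals are given as levels, which are the processed intensity of a probe in multiples of the 75th percentile of its own array. That percentile was 576 intensity units with bilberry and 861 with DMSO, against 1009 for delphinidin and 1016 for cyanidin. Each difference is the log2 level with bilberry minus the log2 level with DMSO, for the brightest measured probe of a gene. The difference of the median gene was 0.17, so the median of a list is read against that value, whereas calls of higher and lower are 2-fold limits around 0. Replicate spots of a probe gave a standard deviation of 0.0528 for a log2 difference, which covers the spots of an array and nothing of the cultures or the RNA. RNA controls added from outside were brighter on the bilberry array by a median log2 of 0.95. Scaling to them would lower all differences by the same 1.53, so that 12 genes would be over 2-fold higher and 9398 over 2-fold lower. Levels of different probes cannot be set against each other.

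With bilberry, 489 genes (4.02% of those measured) had more than 2 times their DMSO level and 776 genes (6.39%) had less than 1/2 of it. Counted relative to the median gene, 281 were higher and 1047 lower by this size. On that count the higher members were 9 rather than 16 for DNA replication, 9 rather than 10 for clustered histones, 6 rather than 7 for the G1 list, 1 rather than 6 for mitosis and spindle, and 2 rather than 7 for the amino acid response. The lower members were 8 rather than 5 for mature adipocyte genes and 4 rather than 2 for the insulin pathway. For the IGF system 5 rather than 3 were lower and 0 rather than 1 higher. For matrix genes 9 rather than 6 were lower and 0 rather than 2 higher. Mitosis and spindle had 11 rather than 9 lower, and heat shock proteins 2 rather than 0. Higher members were also 2 rather than 3 for cholesterol synthesis and 0 rather than 1 for the TGF-beta and BMP list. Of the genes called, 38.7% were higher. This share was 81.7% under normexp, a background correction that models the signal of all spots. It was 38.4% when normexp was refitted without spots marked for uneven local background. The first fit put the background mean at -344.9 on the bilberry array and -4.99 on the DMSO array. The refit put them at -5.647 and -4.768. Under the first of these fits the differences of several dim genes named here changed sign relative to the median gene: Kif20b, Hmmr, Dkc1, Slc2a4, Trarg1, Klf15, Thrsp, Igfbp2, Slc7a3, Trim14, Ifi44, Mx2, Cxcl5, Il6, Zc3h12a and Timp3. The higher genes included members of the DNA replication, clustered histone, G1, antioxidant and amino acid response lists. The genes that were lower included spindle and kinetochore proteins, interferon-stimulated genes, inflammatory mediators, matrix proteoglycans and several products of the mature adipocyte. The master regulators of adipogenesis were between these limits. Both ends of the range lay partly in dim probes: among the fifth of genes with the lowest signal 7.53% were higher and 10.7% lower, and among the fifth with the highest signal 3.5% and 1.48%.

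**Figure D1:**
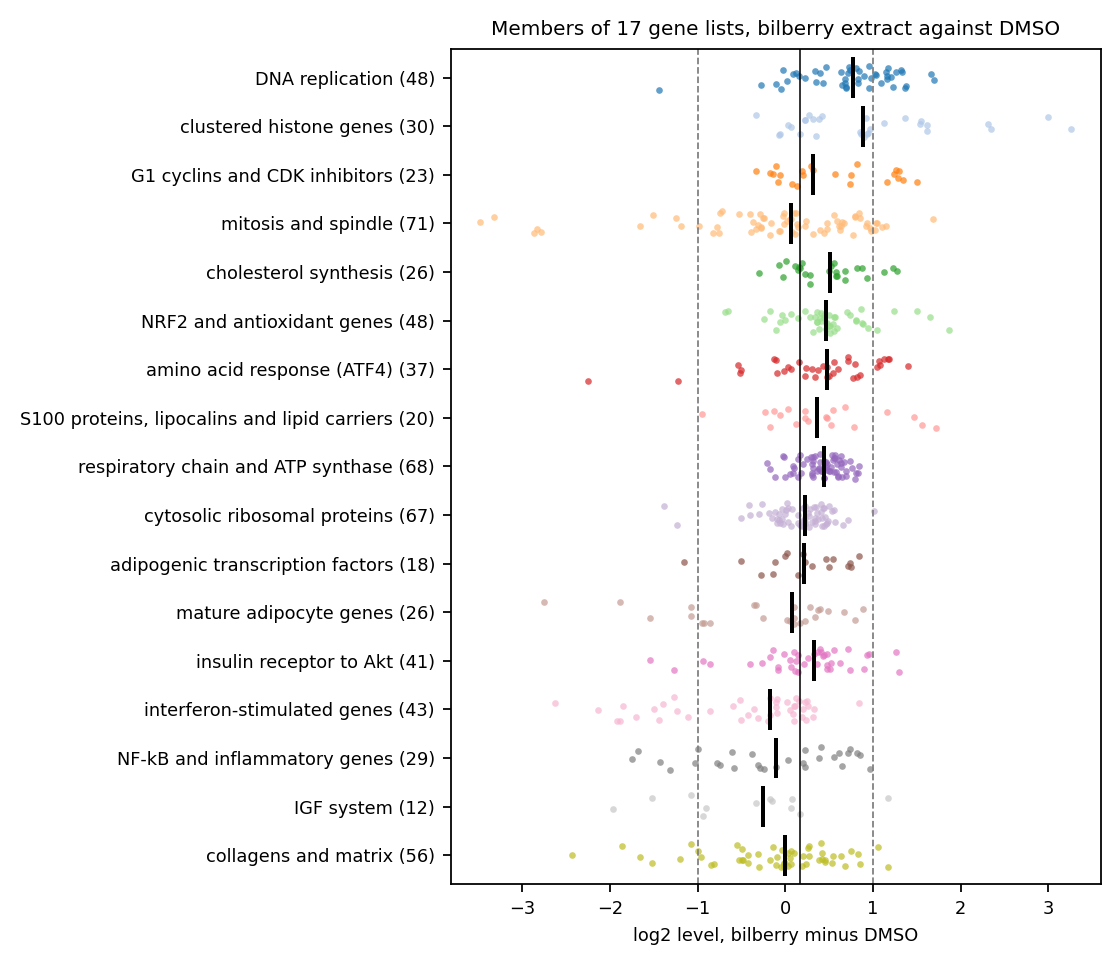
Log2 level with bilberry minus DMSO (x axis) for the measured members of 17 gene lists (number of members in brackets), 1 point a gene; the thick mark is the list's median, the thin line the median of all genes (0.17) and the dashed lines the 2-fold limits. Members of DNA replication and clustered histone genes lie mostly to the right of the median gene, while the interferon-stimulated and IGF system medians lie to its left; under normexp background correction fitted on all spots the interferon, respiratory chain, antioxidant and amino acid response medians changed side.

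Confluent 3T3-L1 cells re-enter the cell cycle after induction and divide before they become adipocytes, a phase known as mitotic clonal expansion. Cyclins and E2F factors drive entry into S phase, the MCM helicase is loaded on origins and licensed, and histone synthesis accompanies the copying of DNA. Later genes, for the condensation of chromosomes and the spindle, belong to G2 and mitosis. The cell cycle genes are described here by role.

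Of 48 measured DNA replication genes, 16 were over 2-fold higher with bilberry (33.3%, against 4.02% of all genes) and 1 was lower (2.08%, against 6.39%). The median difference was 0.78. Origin licensing had the most members past the limit, 7 of 14, with a median of 1.06. Mcm5, a subunit of the MCM helicase, had a level of 3.75 with DMSO and 12.2 with bilberry, and of 9.32 under delphinidin and 7.05 under cyanidin, a difference of 1.70 (3.25-fold). Mcm2, of the same helicase, went from 2.37 to 6.19, with 4.71 and 4.01 on the delphinidin and cyanidin arrays (1.38). Cdc6, which loads the helicase, had 0.411 with DMSO, 1.06 with bilberry, 0.95 under delphinidin and 0.746 under cyanidin (1.37). In these 3 genes DMSO was the lowest and bilberry the highest of the 4 arrays. Mcm3 (1.33), Mcm6 (1.20), Mcm7 (1.16) and Mcm10 (1.16) were also past the limit, while Cdt1 at 0.83 and Mcm4 at 0.69 were not.

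Among nucleotide supply genes 3 of 8 were over 2-fold higher, against 4.02% of all genes. Rrm2, the regulated subunit of ribonucleotide reductase, had levels of 1.87 with DMSO, 5.90 with bilberry, 5.34 under delphinidin and 4.03 under cyanidin, a difference of 1.66. Tk1, thymidine kinase, had 3.23, 8.03, 7.48 and 6.01 on the same arrays (1.32). At the fork, 6 of 26 genes were higher (against the same 4.02%), among them the flap nuclease Fen1 (1.26) and the sliding clamp Pcna (1.09). For Pcna the bilberry level of 59.9 was not the highest, since the delphinidin array had 61.8, with 45.9 for cyanidin and 28.2 for DMSO. The exception in the list was Rfc1, the large subunit of the clamp loader, which had 6.5 with DMSO and 2.40 with bilberry against 7.81 and 7.54 with delphinidin and cyanidin (-1.44). Rfc5, another subunit of that loader, went the other way (1.17).

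The G1 list held 23 measured genes, of which 7 (30.4%, against 4.02% of all genes) were higher and 0 lower, and all 7 were among its 17 members other than CDK inhibitors, which are cyclins, their kinases, Cdc25a, E2F factors and the RB family. Ccnd1 encodes cyclin D1, which couples growth factor signals to the cycle; its level was 1.31 with DMSO, 3.70 with bilberry, 3.78 under delphinidin and 3.19 under cyanidin (1.5). Ccne1, cyclin E1, had 10.7, 27.1, 20.5 and 18.1 in that order (1.34). E2f1 (1.24), E2f2 (1.26), E2f7 (1.30), E2f8 (1.28) and the phosphatase Cdc25a (1.16) completed the group. The 6 CDK inhibitors had a median of 0.14 and none past the limit.

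Clustered histone genes gave the highest median of the 3 S-phase lists, 0.88, with 10 of 30 measured members (33.3%, against 4.02%) higher and 0 lower. Of 61 listed genes 33 had a named probe. H1f5, a linker histone, had levels of 0.881 with DMSO, 8.44 with bilberry, 2.14 under delphinidin and 1.70 under cyanidin, a difference of 3.26 (9.59-fold). H2ac4, an H2A gene, had 0.213, 1.71, 0.454 and 0.359 on these arrays (3.00). H2ac13 had 3.11, 15.9, 6.18 and 4.67 (2.35), and H2ac15 had 5.68, 28.2, 12.0 and 9.01 (2.31). On each of the 4 probes bilberry was highest by more than 2-fold over any other array and DMSO was lowest. The probes for H2ac1 and H2ac10 gave differences of 1.61 and 1.62. Histone copies are so alike that a probe can bind several of them, so the gene behind each value is uncertain. Most of these messengers end in a stem-loop instead of a poly(A) tail, and the labeling here starts from poly(A), so their signal depends on the tailed fraction.

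Of the 4 histone genes with the largest differences, 3 are shown with the 150 bases before their start site (RefSeq promoters on GRCm38.p6, 5′ to 3′ on the gene's strand), since they share a sequence that the arrays did not use. Capitals mark CCAAT or its complement ATTGG, the CCAAT box, a binding site of the factor NF-Y that is known from histone promoters.
H1f5 promoter, chr13:21780626-21780775, minus strand: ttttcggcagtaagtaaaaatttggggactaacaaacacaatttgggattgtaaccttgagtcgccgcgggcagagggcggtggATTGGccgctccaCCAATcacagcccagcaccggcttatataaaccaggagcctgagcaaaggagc
H2ac4 promoter, chr13:23750938-23751087, plus strand: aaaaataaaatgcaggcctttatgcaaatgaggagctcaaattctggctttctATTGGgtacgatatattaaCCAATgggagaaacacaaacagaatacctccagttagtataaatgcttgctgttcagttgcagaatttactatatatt
H2ac15 promoter, chr13:21753913-21754062, minus strand: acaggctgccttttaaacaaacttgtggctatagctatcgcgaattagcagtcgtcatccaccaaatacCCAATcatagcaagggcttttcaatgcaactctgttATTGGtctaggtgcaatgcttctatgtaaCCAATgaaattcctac
The H2ac13 promoter is not shown, because the array's annotation puts its probe on the opposite strand from the RefSeq gene of that name. That annotation also puts the probe much nearer to the H1f5 probe than the RefSeq genes lie to each other. The value given for H2ac13 may therefore belong to another H2A copy. Within 250 bases upstream, CCAAT was found on either strand in 23 of 27 histone promoters in the table (85.2%), including all 10 of those past 2-fold, against 40.8% of 9679 promoters of measured genes. The histone members that stayed within 2-fold held it in 13 of 17. For the replication genes the E2F motif TTCCCGC was present in 9 of 39 promoters (23.1%, against 8.04%), in 3 of the 16 past 2-fold with a promoter in the table. Replication genes within 2-fold held the E2F motif in 6 of 23. A match describes the letters only.

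Genes of mitosis and the spindle were split. Of 71 measured, 6 were higher (8.45%, against 4.02% of all genes), 9 lower (12.7%, against 6.39%), and the median was 0.07. The higher ones were mitotic kinases and regulators: Mybl2, a transcription factor of the S to M transition, had 0.537 with DMSO, 1.72 with bilberry, 1.32 under delphinidin and 0.987 under cyanidin (1.68), and Aurkb (1.15), Melk (1.1), Cdk1 (1.04), Foxm1 (1.02) and the condensin subunit Ncapd2 (1.03) were nearer the limit. Of 3 Ncapd2 probes, the lowest gave 0.04. The 16 kinases and cyclins had a median of 0.64, and the 8 genes of mitotic exit and mitotic transcription, which include Foxm1 and Mybl2, 0.80, with 0 lower in either.

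The lower mitotic genes were motor, kinetochore and chromosome proteins. Cenpe, the kinetochore kinesin, had levels of 16 with DMSO, 1.44 with bilberry, 19.3 under delphinidin and 14.4 under cyanidin, a difference of -3.48 (11.1-fold lower). Mki67, the surface protein of mitotic chromosomes widely used as a proliferation marker, had 7.50, 0.751, 11.4 and 9.37 in the same order (-3.32). Smc4, a condensin subunit, had 25.7, 3.71, 29.2 and 23.4 (-2.79). In all 3 the bilberry array alone was low, and DMSO lay within or close to the range of the other treatments. Cenpf (-2.86), Kif20b (-2.83), Hmmr (-1.66), Kif15 (-1.51), Kif18a (-1.25) and Ndc80 (-1.19) were the others. Kinesins and spindle proteins had a median of -0.28 (5 of 19 lower, against 6.39% of all genes). Kinetochore and other spindle-associated genes had -0.11 (2 of 20 lower, against the same 6.39%). The motif TTTGAA, the CHR element of G2/M promoters, was in 22 of 61 promoters of this list (36.1%, against 12.6% of all) and in 4 of the 12 with a promoter that were past 2-fold in either direction. Members within 2-fold held it in 18 of 49.

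**Figure D2:**
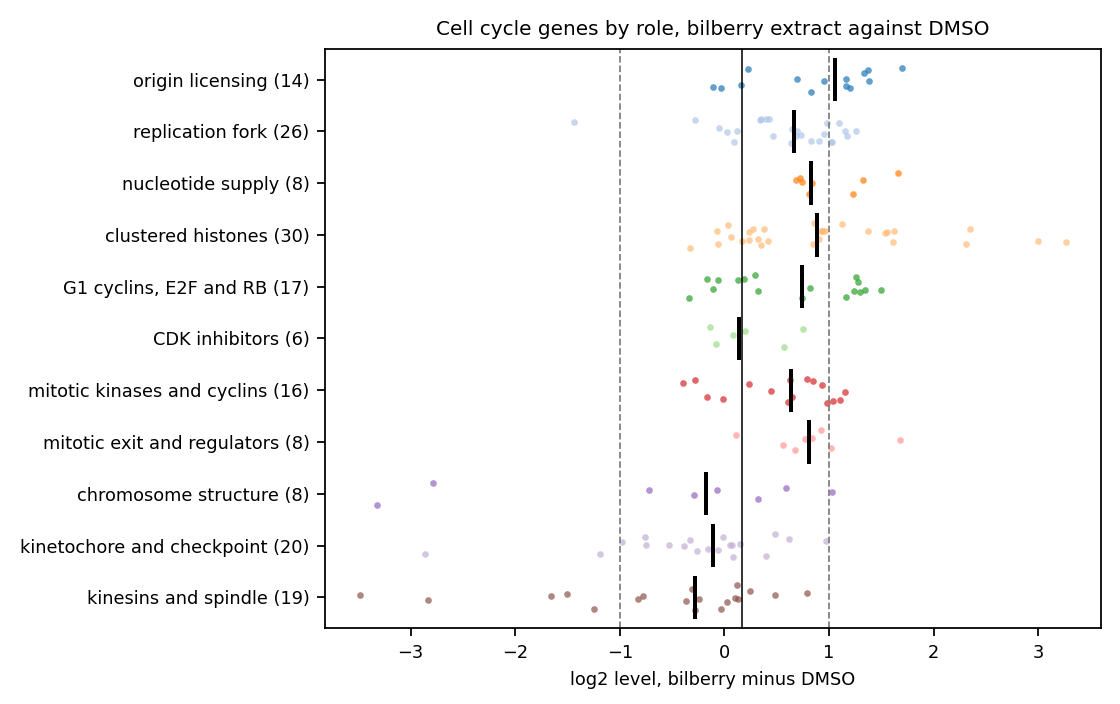
Log2 level with bilberry minus DMSO (x axis) for cell cycle genes by role (number measured in brackets), 1 point a gene, with the role's median as a thick mark, the median of all genes (0.17) as a thin line and the 2-fold limits dashed. Licensing genes centre on 1.06 and histones on 0.88, whereas kinesins and spindle proteins centre on -0.28 with 5 members below -1.

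Gene size moved with these groups. The genomic span of the 9 lower mitotic genes had a median of 47.5 kb, against 20.9 kb for the 6 higher and 22.4 kb for the remaining 56. Over all genes, the median span was 13.6 kb for those higher with bilberry, 29.4 kb for those lower and 21.8 kb overall. By list, the median span was 16.8 kb for DNA replication and 0.504 kb for clustered histones. For interferon-stimulated genes, of which 27.9% were lower, it was 15.3 kb, and for matrix genes, of which 10.7% were lower, 48.1 kb. In the fifth of genes with the longest span 2.51% were higher and 7.9% lower, and in the fifth with the shortest span 6.25% and 4.57%. In all 1701 genes with probes at least 10 kb apart, the 5′ probe's log2 difference from DMSO was subtracted from the 3′ probe's. The median result was -0.19 with bilberry, 0.04 under delphinidin and 0.13 under cyanidin. With bilberry this median was 0.01 for 1666 genes with probes 2 to 10 kb apart and 0.05 for 1510 genes with nearer probes, and it was not taken for the cell cycle groups. The part of transcript length or RNA quality in the lower group was not tested.

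The lowest genes were not limited to these lists. Among genes whose level reached 1 on either array, the 10 lowest were Wfdc12, Hmgn5, Ankrd12, Cenpe, Mki67, Hp, Sparcl1, Ppig, Akap9 and Ccdc88a. Ankrd12, a nuclear cofactor, had 5.31 with DMSO, 0.430 with bilberry, 5.39 under delphinidin and 5.17 under cyanidin (-3.63). Hmgn5, a nucleosome-binding protein, had 2.16, 0.175, 2.73 and 2.07 (-3.63). Akap9, a centrosomal and Golgi scaffold, had 4.04, 0.555, 3.59 and 3.62 (-2.86). In these, as in Ppig (-2.99) and Ccdc88a (-2.90), the DMSO level was near that with delphinidin and cyanidin, and bilberry stood alone.

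Probes along a gene did not always move together. In Ankrd12 the 2 probes farthest upstream, 82.2 and 69.6 kb before the most 3′ probe, gave -0.30 and -0.18, whereas those at 19.1 and 0.0 kb gave -3.63 and -3.12. In Akap9 the probe 122.6 kb upstream gave -1.87 and the 2 nearer probes -2.95 and -2.86. In Cntln, which encodes a centriolar protein, the corresponding values were -1.70 at 136.9 kb, -3.73 at 7.1 kb and -3.25 at the 3′ end. Ccdc88a had no such order, with -2.90 at 40.3 kb, -1.16 at 8.7 kb and -2.64 at the 3′ end. The 2 probes of Cenpe (-3.17 and -3.48) and of Mki67 (-3.22 and -3.32) were alike. Over all genes with several measured probes, all probes lay on the same side of 0 in 111 of 129 higher genes and in 252 of 299 lower genes, and all passed 2-fold in 40 and in 139.

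**Figure D3:**
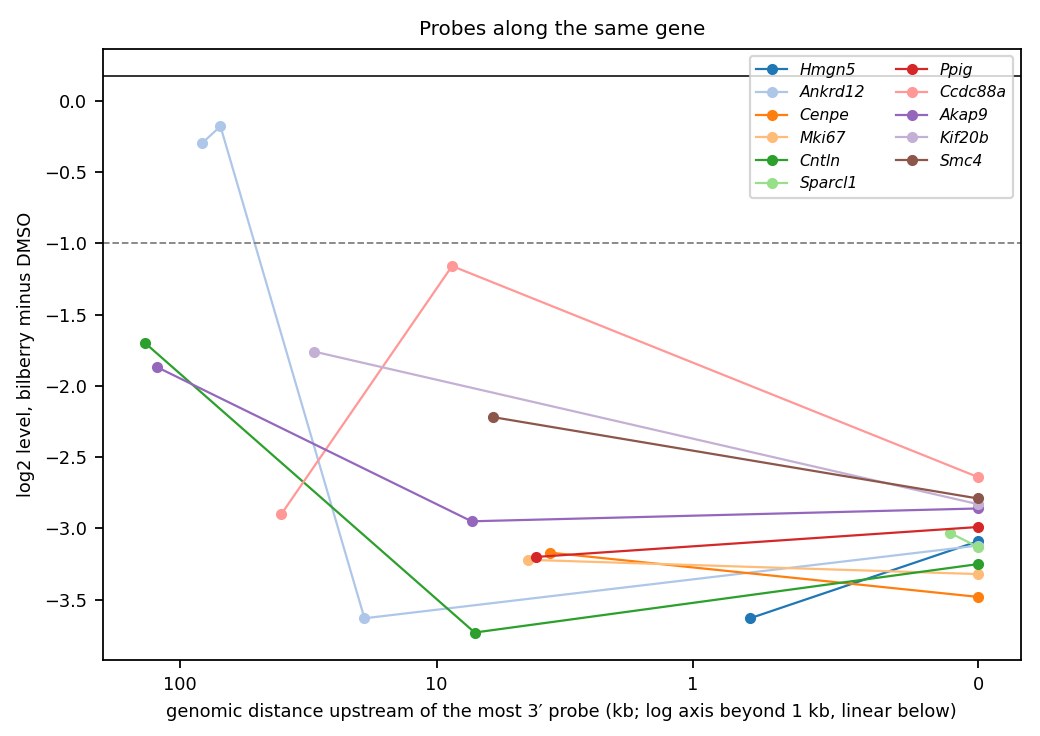
Log2 level with bilberry minus DMSO (y axis) for each measured probe of 11 low genes, against the genomic distance upstream of the gene's most 3′ probe (x axis, kb, log scale beyond 1 kb); the solid line is the median gene (0.17) and the dashed line the 2-fold limit. The far upstream probes of Ankrd12, at -0.30 and -0.18, lie well above its 3′ probes at -3.63 and -3.12.

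Other genes at the low end had a DMSO level above all 3 treatments. Hp, the acute-phase protein haptoglobin that fat tissue also secretes, had 20.5 with DMSO, 2.26 with bilberry, 2.76 under delphinidin and 5.18 under cyanidin (-3.18). Wfdc12, a small protease inhibitor, had 3.78, 0.176, 0.202 and 0.518 (-4.42, 21.5-fold lower). Sparcl1, a matricellular protein, had 6.63, 0.757, 2.71 and 3.25 (-3.13), with bilberry also well below delphinidin and cyanidin. Acox2, an oxidase of peroxisomal bile acid and branched fatty acid breakdown, had 0.375, 0.0277, 0.0219 and 0.0341 (-3.76). For these 4 genes the DMSO level was above each of the others, and since all treatments are set against that same array its own deviation enters every difference. Wnt3a, a ligand of the Wnt pathway, was not well above background with bilberry and was at least 15.9-fold higher with DMSO (0.357), with 0.00222 and 0.00225 on the delphinidin and cyanidin arrays.

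At the high end, the 10 highest genes among those that reached a level of 1 were 4 histone genes and Zfp652, Arhgap22, Srrm4, Syt10, Rdh12 and Chrne. Syt10, a calcium sensor of vesicle release, had 23.5 with DMSO, 88.1 with bilberry, 21.1 under delphinidin and 28.0 under cyanidin (1.91). Rdh12, a retinol dehydrogenase, had 7.18, 26.9, 7.63 and 10.4 (1.90). Arhgap22, a regulator of Rac, had 1.02, 3.98, 3.29 and 2.47 (1.97). The first 2 of these were high with bilberry alone, and Arhgap22 was low with DMSO alone. A second probe of Zfp652 gave 0.20 against 3.04, and one of Chrne 0.18 against 1.90. With DMSO and bilberry these second probes were at 0.0286 and 0.0329 for Zfp652 and 0.0336 and 0.0381 for Chrne. These second probes were dim, near the lowest bilberry level called above background, 0.0225. Both were measured on both arrays and neither rose past 2-fold, so each rise rests on the brighter probe. The genes with the largest rise of all were dim: Olfr974, an olfactory receptor, had 0.0215 with DMSO and 0.330 with bilberry (3.94), and Add2, an adducin of the membrane skeleton, had 0.0166 and 0.242 (3.87), where the lowest level called above background was 0.0151 with DMSO. Other probes of Add2, Srrm4 and Syt10 did not count as measured on both arrays, so the rise of each gene rests on 1 probe. For Syt10 the other probe was at 0.00416 with DMSO and 0.00465 with bilberry.

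**Figure D4:**
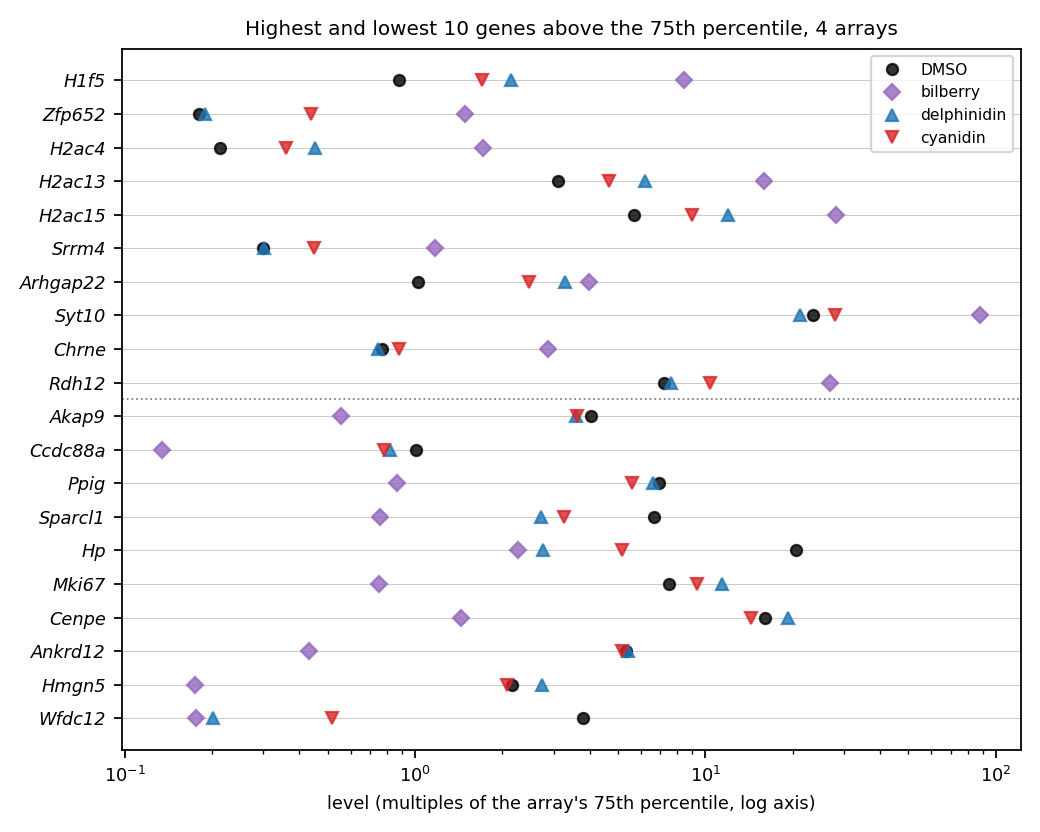
Level on each of the 4 arrays (x axis, multiples of the array's 75th percentile, log scale) for the 10 highest and, below the dotted line, the 10 lowest genes by log2 difference among those that reached the 75th percentile with DMSO or bilberry. Bilberry alone is low for Cenpe, Mki67, Ankrd12 and Hmgn5, whereas DMSO alone is high for Wfdc12 and Hp.

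Adipocyte differentiation runs from the early factors C/ebpβ, C/ebpδ and Klf5 to Pparγ and C/ebpα, which switch on the genes of lipid storage, adipokines and insulin-responsive glucose uptake. Of 18 measured adipogenic transcription factors 0 were higher and 1 was lower (5.56%, near the 6.39% of all genes), with a median of 0.21. Pparg had levels of 16 with DMSO, 17.8 with bilberry, 19.8 under delphinidin and 19.9 under cyanidin (0.15). Cebpa had 4.90, 6.95, 5.62 and 6.11 (0.50), and Klf5 had 3.90, 6.44, 5.43 and 5.11 (0.72). Cebpb was at 121 with DMSO and 175 with bilberry (0.54), Cebpd at 123 and 151 (0.30). All 5 differences were above 0, and that of Pparg lay just below the 0.17 of the median gene. The member past the limit was Klf15, at 0.0831 with DMSO and 0.0372 with bilberry (-1.16). Srebf1 was bright but its DMSO spot was marked for outlying background, so it was not compared, and Lep was well above background on neither array.

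Mature adipocyte genes were mixed: 5 of 26 were lower (19.2%, against 6.39% of all genes), 0 higher, with a median of 0.07. Slc2a4, the insulin-responsive glucose transporter GLUT4, had 0.431 with DMSO, 0.148 with bilberry, 0.281 under delphinidin and 0.356 under cyanidin (-1.54). Trarg1, a partner of GLUT4 traffic, had 0.310, 0.0460, 0.0412 and 0.0584 (-2.75). Adipoq, the adipokine adiponectin, had 1.16, 0.553, 1.02 and 1.36 (-1.07), and Retn, resistin, had 3.28, 1.56, 3.1 and 3.55 (-1.08). Adipoq and Retn were low with bilberry alone, while Trarg1 was high with DMSO alone. Fabp4, the fatty acid carrier, stayed just within the limit at 265 with DMSO and 137 with bilberry, against 231 and 258 (-0.95), and its 3 probes ranged from -1.25 to -0.88. Lipid droplet genes (median 0.26), lipid uptake (0.02) and lipolysis (0.02) had no member past the limit. Lpl was at 95.6 and 96.8 (0.02) and Plin1 at 6.74 and 8.84 (0.39).

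The insulin pathway relays hormone binding through the receptor and its IRS substrates to PI3-kinase and Akt. Of 41 measured genes 2 were higher and 2 lower (4.88% each, near the 4.02% and 6.39% of all genes), with a median of 0.33. Insr, the receptor, had 0.529 with DMSO, 0.275 with bilberry, 0.363 under delphinidin and 0.387 under cyanidin (-0.94), and its second probe gave -0.42. Irs1 had 5.57, 5.96, 6.38 and 5.50 (0.10), and Akt1 had 55.9, 82.4, 56.8 and 57.1 (0.56). Past the limit were Irs4 (1.26) and Foxo3 (1.30), both higher, and Pik3ca (-1.27) and Slc2a4 (-1.54), both lower. A second Foxo3 probe gave 0.26, and a second Pik3ca probe -0.46. The IGF system, ligands and binding proteins of the related receptor, had 3 of 12 lower (25%, against 6.39%), 1 higher (8.33%, against 4.02%) and a median of -0.25. Igfbp2 had 0.240, 0.0616, 0.0716 and 0.0695 (-1.96), Igf1 0.696, 0.329, 0.407 and 0.526 (-1.08), and Pappa, a protease that frees IGF from its carriers, 5.32, 1.86, 3.11 and 2.99 (-1.52). In each the DMSO level was the highest and the bilberry level the lowest.

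Cholesterol synthesis, under the factor SREBP2, had 3 of 26 genes higher (11.5%, against 4.02% of all genes), 0 lower and a median of 0.51. Relative to all genes this median was 0.34, and 0.02 under normexp fitted on all spots. Tm7sf2, a sterol reductase, had 2.11 with DMSO, 5.08 with bilberry, 2.70 under delphinidin and 2.31 under cyanidin (1.27). Dhcr7, the last reductase of the pathway, had 5.64, 13.2, 6.95 and 7.48 (1.23), and Acat2 had 0.996, 2.16, 1.20 and 1.23 (1.12). Bilberry alone was high in these 3. Sqle, squalene epoxidase, stayed within the limit (0.59). The sterol element TCACNCCAC was in 1 of 19 promoters of the list (5.26%, against 1.24%) and in 0 of the 3 past 2-fold. In fatty acid and triglyceride synthesis the median was 0.13, and 1 of 25 genes was lower (4%, against 6.39%) and 0 higher. This was Thrsp, a lipogenic regulator, at 0.257 and 0.0792 (-1.70). Fasn, fatty acid synthase, was at 0.662 and 0.905 (0.45). A brighter Fasn probe had no usable bilberry value and so was not compared, with 123 with DMSO, 154 under delphinidin and 152 under cyanidin.

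NRF2 and antioxidant genes had 5 of 48 members higher (10.4%, against 4.02%), 0 lower and a median of 0.46, a sign that turned relative to all genes under normexp fitted on all spots. Hmox1, heme oxygenase 1, had 3.62 with DMSO, 13.2 with bilberry, 8.49 under delphinidin and 5.26 under cyanidin (1.87). Gsta3, a glutathione transferase, had 0.425, 1.33, 1.22 and 1.48 (1.65), and Ephx1, microsomal epoxide hydrolase, had 0.810, 2.29, 1.5 and 1.51 (1.5). Hmox1 was highest with bilberry, while Gsta3 was low with DMSO alone. Nqo1, the classical NRF2 target, was at 2.52 and 2.33 (-0.11), and Txnrd1 at 11.4 and 15.6 (0.46). The antioxidant element TGACNNNGC was in 9 of 40 promoters of the list (22.5%, against 14.1%), and in 1 of the 3 with a promoter that were past 2-fold. Of 8 measured targets and partners of the aryl hydrocarbon receptor, which senses planar aromatic compounds, 0 passed the limit in either direction. Cyp1b1 was at 24.1 and 23.6 (-0.03) and Cyp1a1 was above background on neither array. Aldh3a1, an aldehyde dehydrogenase in both the antioxidant and the aryl hydrocarbon receptor lists, was not well above background with DMSO and was at least 5.22-fold higher with bilberry (0.0788), with 0.0817 and 0.058 on the delphinidin and cyanidin arrays.

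The amino acid response, driven by ATF4, had 7 of 37 genes higher (18.9%, against 4.02%), 2 lower (5.41%, against 6.39%) and a median of 0.48, which likewise changed sign relative to all genes under the first normexp fit. The serine synthesis enzymes Phgdh (13.8 with DMSO, 36.3 with bilberry, 28.9 with delphinidin, 20.5 with cyanidin, 1.40) and Psat1 (8.73, 18.5, 12.4 and 13.7, 1.08) were among them, with Shmt2 (1.04), Sesn2 (1.18), Chac1 (1.17), Trib3 (1.13) and the transporter Slc7a5 (1.07). Slc7a3, a cationic amino acid transporter, was at 0.289 with DMSO and 0.0606 with bilberry (-2.25), and Nupr1 at 9.48 and 4.06 (-1.22). The enzymes of the list had a median of 0.54 and the tRNA synthetases, with 0 of 12 past the limit, 0.42. Iron handling included Tfrc, the transferrin receptor, at 0.519 with DMSO, 1.78 with bilberry, 1.56 under delphinidin and 1.17 under cyanidin (1.78).

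Large housekeeping groups had medians between 0.08 and 0.44. Respiratory chain and ATP synthase genes had 0 of 68 past the limit and a median of 0.44, with a range of -0.21 to 0.84; relative to all genes this sign turned under normexp fitted on all spots. Cytosolic ribosomal proteins had a median of 0.22, with 1 of 67 higher (1.49%, against 4.02%) and 2 lower (2.99%, against 6.39%). The higher one was Rpl21 (1.01), of which another probe gave -0.62, and Rpl4 (-1.38) and Rpl11 (-1.23) were lower. A brighter Rpl11 probe, marked on the DMSO array and so not compared, had 455 with bilberry, 331 under delphinidin and 344 under cyanidin. Proteasome genes had 0 of 35 past the limit. Ribosome biogenesis had 4 of 41 lower (9.76%, against 6.39%), 1 higher (2.44%, against 4.02%) and a median of 0.31. Nop58 was at 13.2 with DMSO, 4.46 with bilberry, 16.2 under delphinidin and 16.5 under cyanidin (-1.56), and the other nucleolar genes Gnl3 (-1.35), Dkc1 (-1.34) and Ncl (-1.24) were lower and Rrp12 (1.04) higher. Splicing factors had 4 of 43 lower (9.3%, against 6.39%), 0 higher and a median of 0.08, led by Srsf11 at 16, 4.22, 14.6 and 13.1 (-1.93), of which 2 further probes gave -0.63 and -0.70. Nop58 and the brightest Srsf11 probe were low with bilberry alone. Heat shock proteins had 0 of 29 past the limit.

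Interferon-stimulated genes encode antiviral sensors and effectors that cells also keep at a basal level. Of 43 measured, 12 were lower (27.9%, against 6.39%), 0 higher, and the median was -0.17, which turned above that of all genes under normexp fitted on all spots. Ifi204 and Ifi205, nuclear proteins of the HIN-200 family, were the members with ample signal: Ifi204 had 54.0 with DMSO, 22.8 with bilberry, 49.9 under delphinidin and 51.9 under cyanidin (-1.24), and Ifi205 had 5.46, 1.52, 6.08 and 5.34 (-1.85). Ifi203, of the same family, had 1.86, 0.572, 1.59 and 1.47 (-1.70). These 3 were low with bilberry alone. Trim14, an antiviral adaptor, had 0.248, 0.0400, 0.0245 and 0.0157 (-2.63), and was high with DMSO alone. Ifi44 (-2.14), Mx2 (-1.89), Ifih1 (-1.50), Gbp3 (-1.39), Ifit1 (-1.27) and Ifit2 (-1.11) had bilberry levels between 0.0230 and 0.0649, close to the 0.0225 that was the lowest level called above background on that array. The interferon regulatory factor Irf7 was at 0.0635 with DMSO and 0.0723 with bilberry (0.19).

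The 4 lower interferon-stimulated genes whose promoter holds the interferon-stimulated response element on either strand are shown because this motif marks the list apart from the arrays. Capitals mark the element, which is GAAA, any pair of bases and another GAAA, or the same with TTTC on the other strand, overlapping matches included, in the 150 bases before the start site, from RefSeq on GRCm38.p6.
Ifit1 promoter, chr19:34640739-34640888, plus strand: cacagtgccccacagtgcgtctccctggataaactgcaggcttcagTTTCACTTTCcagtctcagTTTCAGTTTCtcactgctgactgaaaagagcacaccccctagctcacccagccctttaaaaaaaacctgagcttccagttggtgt
Gbp3 promoter, chr3:142559894-142560043, plus strand: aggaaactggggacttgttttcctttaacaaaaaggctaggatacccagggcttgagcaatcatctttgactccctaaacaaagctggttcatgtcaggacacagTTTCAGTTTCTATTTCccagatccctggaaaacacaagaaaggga
Ifi203 promoter, chr1:173942493-173942642, minus strand: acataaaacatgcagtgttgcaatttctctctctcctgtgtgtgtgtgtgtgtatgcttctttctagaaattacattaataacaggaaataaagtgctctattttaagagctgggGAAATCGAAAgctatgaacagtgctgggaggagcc
Ifi205 promoter, chr1:174031756-174031905, minus strand: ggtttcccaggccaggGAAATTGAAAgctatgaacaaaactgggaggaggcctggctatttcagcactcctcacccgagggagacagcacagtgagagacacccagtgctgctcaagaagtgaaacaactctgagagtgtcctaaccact
Within 250 bases upstream the element was found in 14 of 33 promoters of the list (42.4%), against 3.03% of promoters of all measured genes, and in 4 of the 8 lower members with a promoter in the table. Of the other members it was in 10 of 25.

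Inflammatory genes under NF-kB had 5 of 29 members lower (17.2%, against 6.39%), 0 higher and a median of -0.11. By role, the 9 chemokines had a median of 0.71 with 1 lower, the 4 cytokines -0.88 with 2 lower, and the 16 regulators -0.10 with 2 lower. Cxcl5, a neutrophil chemokine, had 0.333 with DMSO, 0.0994 with bilberry, 0.201 under delphinidin and 0.203 under cyanidin (-1.75). Il33, an alarmin of stromal cells, had 0.574, 0.179, 0.225 and 0.252 (-1.68), and Ptx3, a secreted pattern receptor, 7.51, 3.02, 4.83 and 3.78 (-1.32). In all 3 the order was DMSO highest and bilberry lowest. Il6 (-1.03) and Zc3h12a (-1.43) had bilberry levels of 0.0427 and 0.0323, near background. C3 complement was at 271 and 230 (-0.24). Cxcl2 was not well above background with DMSO and at least 4.69-fold higher with bilberry, so the chemokines were not of a single direction.

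Extracellular matrix genes had 6 of 56 lower (10.7%, against 6.39% of all genes), 2 higher (3.57%, against 4.02%) and a median of 0.00. The lower ones included a collagen of fibril surfaces, one of anchoring fibrils and a pair of small proteoglycans. Lum, lumican, had 5.96 with DMSO, 1.64 with bilberry, 3.04 under delphinidin and 3.44 under cyanidin (-1.86). Dcn, decorin, had 56.3, 19.6, 30.8 and 37.4 (-1.52), and Col7a1 had 6.12, 1.14, 2.94 and 4.21 (-2.43). Col12a1 (-1.66), Vcan (-1.20) and Postn (-1.07) completed the group; of Postn the delphinidin level of 46.1 was above the 31.3 with DMSO, and of 4 Vcan probes the highest gave -0.26. The higher ones were the microfibril proteins Mfap2 (1.17) and Mfap4 (1.06). Col1a2, a chain of type I collagen, was at 277 and 403 (0.54). The matrix protease inhibitors went both ways, with Timp2 at 36.1, 89.8, 52.4 and 51.0 (1.31) and Timp3 at 0.285, 0.112, 0.205 and 0.127 (-1.35).

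Among the smaller groups, S100 proteins and lipocalins had 4 of 20 higher (20%, against 4.02%) and 0 lower: S100b at 0.261 with DMSO, 0.860 with bilberry, 0.969 under delphinidin and 0.788 under cyanidin (1.72), the lipocalin Apod (1.56), S100a8 (1.47) and S100a16 (1.16). Of ERK-responsive genes 3 of 26 were higher (11.5%, against 4.02%), led by the PEA3 factor Etv4 at 0.0831, 0.367, 0.267 and 0.252 (2.14). S100b and Etv4 were both low with DMSO alone. The TGF-beta and BMP list had 3 of 47 lower and 1 higher (6.38% and 2.13%, near the 6.39% and 4.02% of all genes). Grem1, a BMP antagonist, had 2.33, 0.655, 1.49 and 1.04 (-1.83), and Inhba, the activin A subunit, 6.99, 2.30, 5.14 and 5.28 (-1.60), while Tgfb1 had 0.788, 1.61, 0.846 and 0.883 (1.03). The Wnt list had 4 of 32 lower (12.5%, against 6.39%) and 1 higher (3.12%, against 4.02%). The higher one was Fzd5 (1.31), of which a second probe gave 0.22. Lef1 had 7.30, 3.51, 3.80 and 4.31 (-1.06), and Wnt4 3.17, 1.44, 1.33 and 1.73 (-1.14). Slc2a1, the basal glucose transporter GLUT1, had 9.01, 25.5, 13.1 and 8.37 (1.5), whereas GLUT4 was lower as given above. Tagln, an actin-binding protein of contractile cells, had 5.24, 13.1, 4.42 and 3.06 (1.32). Slc2a1 and Tagln were highest with bilberry, with the other 3 arrays well below.

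**Figure D5:**
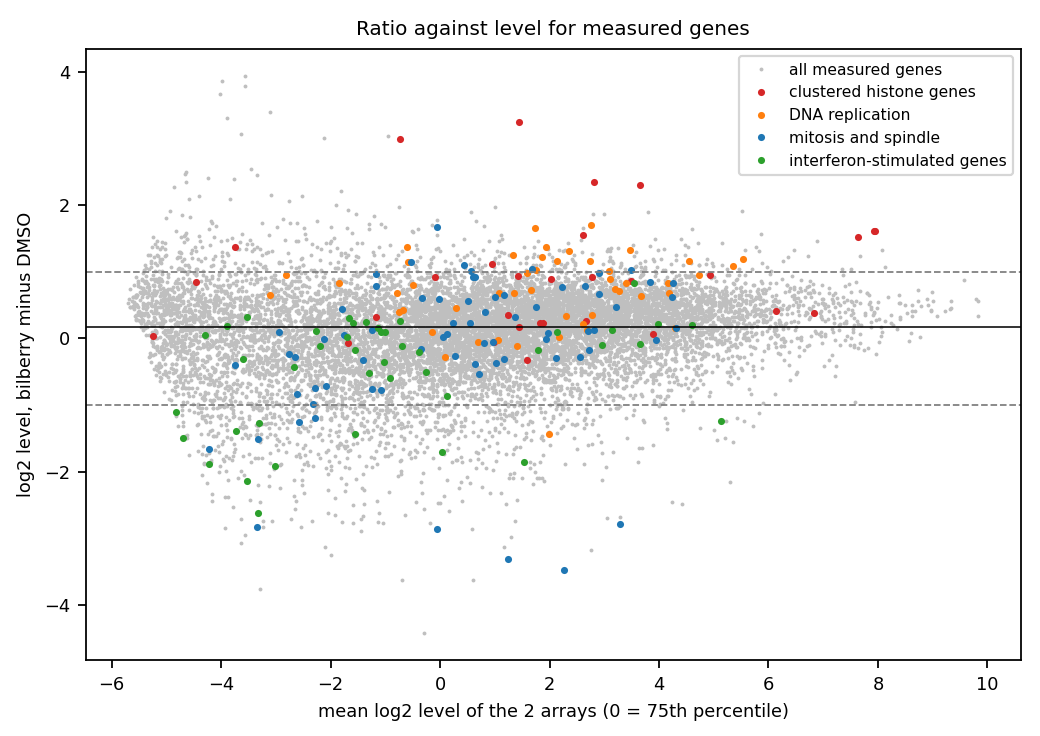
Log2 level with bilberry minus DMSO (y axis) against the mean log2 level of the 2 arrays (x axis, 0 is the 75th percentile) for 12151 genes, with 4 lists coloured, the median gene (0.17) as a solid line and the 2-fold limits dashed. Most of the lower interferon-stimulated genes lie at the dim end.

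The label of the samples, adipocyte, was checked against markers. Preadipocyte and fibroblast markers were measured on both arrays for 9 of 10 genes, with a summed level over those genes of 805 with DMSO and 889 with bilberry. Such a sum follows its bright probes, such as Col1a2 at 277 and 403, and is read between arrays only. The median difference of the 9 genes was -0.12, with 3 above the median gene. Thy1 was lower (65.2 and 28.4, -1.20), which is 11.1% against 6.39% of all genes, and 0 were higher. Dlk1, which preadipocytes lose as they differentiate, was at 33.8 and 41.9 (0.31). Lep was undetected while Adipoq, Fabp4 and Plin1 were measured, so the cells carried markers of both states. In a bulk culture fewer cells of a state and less RNA per cell cannot be told apart. Few markers of other cell types were well above background on both arrays. Those that were, with their summed levels with DMSO and bilberry, were 4 of 7 macrophage genes (1.08 and 0.896), 1 of 6 endothelial genes (0.0194 and 0.0322), 2 of 7 epithelial genes (0.0968 and 0.132), 1 of 5 skeletal muscle genes (0.055 and 0.0585) and 1 of 5 neuronal genes (0.253 and 0.485). The defining markers Ptprc, Adgre1, Pecam1, Cdh5, Epcam, Cdh1, Myod1 and Myog were above background on neither array. Markers of osteoblasts and cartilage, lineages that share an origin with preadipocytes, summed to 8.26 and 8.99, with 5 of 7 measured and 0 past the limit. Their part in any difference was not tested. Placement on the slide moved little with the calls, since 3.9% of genes in a band of rows across the array were higher and 6.66% lower, against 4.12% and 6.17% in the other rows.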

How the data were processed

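Total RNA of 4 cultures was labeled with Cy3 and hybridized to 1-colour arrays, 1 array a condition. The authors deposited spot files of the scanner software, in which the processed intensity is background-subtracted with surrogate values at background; a deposited table of the whole series held the same intensity. Control spots and spots marked as outliers were left out, spots of a probe were averaged as log2, and signals were expressed relative to the 75th percentile over non-control spots of their array. Probes were named from RefSeq (GRCm38.p6) by accession (24490), symbol (6234) or synonym (2391), and 8059 were unnamed. A gene is its brightest measured probe. Calls are ratios over 2 or under 1/2. Genes named are the 15 highest and 15 lowest, the 10 highest and 10 lowest that reached the 75th percentile, up to 6 members of each list and direction past 2-fold, the list's brightest member, and genes the study names; any other gene given with a value was chosen after its values were seen. Members and the 50 gene lists were chosen with earlier results of these data known. Genomic span stands in for transcript length. Motifs were searched on both strands. The calculation was tested on simulated data with spot noise only, which checks the code and not the variation of cultures, RNA or probes. Number of arrays limits precision, and no depth applies beyond signal over background. Alternatives were normexp (offset 50, limma 3.58.1, also refitted without spots marked for background), quantile and loess normalization, other scalings, detection filters, thresholds of 1.5 and 3, and the deposited table. Python 3.11.15, numpy 2.4.6, pandas 2.3.3, matplotlib 3.10.9 and R 4.3.3 were used.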

Additional observations from a re-analysis of the deposited data

Results flagged for a closer look

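The RNA controls that are added from outside before labeling, which are not among the genes compared and serve only as an alternative scaling, had a median log2 signal 0.95 higher with bilberry than with DMSO, while the 75th percentile of the cell's probes was lower by 0.58. On the delphinidin and cyanidin arrays the controls differed from DMSO by -0.03 and 0.00.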

How the results depend on the processing

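With 489 genes higher and 776 lower as the starting counts, normexp background correction gave 2507 higher, and its refit without spots marked for uneven local background 275 higher and 441 lower; on the bilberry array the first fit put the background mean at -344.9 and the refit at -5.647, with a local background of up to 11380. The share of calls that were higher was 38.7%, and 81.7% under the first normexp fit. Scaling to the added RNA controls gave 12 higher and 9398 lower (0.128% higher), and a median gene of -1.36. No detection filter gave 1304 and 1395, detection on at least 1 of the 2 arrays 1209 lower, and a level of at least 1 on either array 242 and 330. A threshold of 1.5 gave 2280 and 1618, a threshold of 3 gave 76 and 265, and counting probes gave 943 and 1520. The counts under quantile normalization (450 and 811), cyclic loess (432 and 781), scaling to the median of detected probes (538 and 740), control spots included, marked spots kept, detection on all 4 arrays, a band of rows left out, the median over probes and the deposited table were within 1.5 times.

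The sign relative to all genes was turned by the first normexp fit and by no other alternative run, among lists at least 0.2 from all genes and named genes past 2-fold. The list medians became 0.41 for interferon-stimulated genes, -0.12 for NRF2 and antioxidant genes, -0.04 for the amino acid response, -0.21 for the respiratory chain, -0.15 for housekeeping reference genes, -0.06 for lysosome and autophagy and -0.07 for p53 targets and the BCL2 family. The genes turned were Aif1 (0.82), Atrx (0.51), Car3 (0.17), Ccdc66 (0.55), Cxcl5 (0.22), Dkc1 (0.21), Hmmr (1.43), Ifi44 (0.97), Igfbp2 (0.59), Iigp1 (0.56), Il6 (1.55), Itga8 (1.48), Kif20b (0.46), Klf15 (1.59), Mx2 (1.32), Per3 (1.54), Rgs16 (1.14), Slc2a4 (0.02), Slc7a3 (0.32), Thrsp (0.49), Timp3 (0.44), Trarg1 (0.21), Trim14 (0.47) and Zc3h12a (1.56). The lists for DNA replication (0.33 to 0.65) and clustered histones (0.50 to 0.74) stayed above all genes and the IGF system (-0.59 to -0.14) below in every alternative. No paired analysis was possible because each group has 1 array, and for the same reason none could be left out. Signal over background limits the dim genes.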
